A study of Canis lupus familiaris with 12 samples.

Results

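The immunoproteasome and major histocompatibility complex (MHC) class II genes described here are PSMB8, PSMB9, DLA-DRA and DLA-DQA1, which together help to present protein fragments to T cells. Their probes were taken as all non-control probes of the array whose accession is a RefSeq transcript of 1 of these 4 dog genes. They are 4 of the 944 genes that could be named on the array, and the rule gave 7 of its 43603 probes, 1 for PSMB8 and 2 for each of the other genes. All 7 were bright enough to be tested, among 27136 tested probes. The rule used no measured value, but the 4 genes were proposed with earlier results of these data known.

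RNA came from Madin-Darby canine kidney (MDCK) cells, a permanent epithelial line from the tubule of a dog kidney, grown to confluence and then moved to serum-free medium. The acid-treated cells spent 24 h in medium at pH 7.0, obtained by using less bicarbonate, and the control cells spent 24 h in medium at pH 7.4. Neither group carried a genetic change or any other treatment. The study asked whether acid medium changes inflammatory gene expression in these cells. Each of 3 biological replicates, extracted on separate dates, gave 1 extract at pH 7.0 and 1 at pH 7.4, and each of the 6 extracts, carrying the dye Cy3, was read on 2 one-colour Agilent arrays, 12 arrays in all and 6 per group. Both extracts of a biological replicate therefore form a pair, and p-values refer to 3 separate extractions from 1 cell line.

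The proteasome cuts proteins inside the cell into short peptides. In immune cells and in cells exposed to interferon, the catalytic subunits PSMB8 (also called LMP7) and PSMB9 (LMP2) take the place of their constitutive counterparts, and the resulting immunoproteasome makes peptides suited to MHC class I molecules. MHC class II molecules are pairs of an alpha and a beta chain that display peptides from endosomes to helper T cells. DLA-DRA encodes the dog DR alpha chain and DLA-DQA1 the DQ alpha chain. Class II molecules are typical of B cells, macrophages and dendritic cells, and in humans and mice kidney tubule epithelium also makes them after interferon gamma.

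The arrays differed in quality between biological replicates. A single array detected, well above its background, 49.4% to 70.4% of the probes. Biological replicate 2 had the lowest shares, with 49.4% to 54.1% on its 4 arrays, while the other 8 arrays had 62.2% to 70.4%. Each biological replicate lay on its own slide with its own scan date, so extraction and slide cannot be told apart, but each slide held both groups. Over the 5 kidney epithelium markers with a named probe (CLDN2, ATP1B1, CTNNB1, OCLN and PODXL), all 5 were measured well enough to be tested. CLDN2 had an estimate of 1.15 ± 0.29 and ATP1B1 of -0.69 ± 0.32. The summed linear level of the 5 was taken relative to the 75th percentile of the array. It was 98.9 to 179 over the pH 7.0 extracts and 93.2 to 129 over the pH 7.4 extracts. This sum came mostly from CTNNB1, with mean log2 levels of 6.98 at pH 7.0 and 6.70 at pH 7.4. The CTNNB1 probe was saturated on 9 arrays. The mean log2 levels of the other markers lay between -4.94 and 1.62, so the sum says little about them.

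Levels are given as the log2 of the processed signal relative to the 75th percentile of its array, so that 0 is the signal of a probe at that percentile. Because probes bind with different strength, each probe is compared only with itself. A change is the pH 7.0 level minus the pH 7.4 level within a biological replicate, and its standard error (SE) comes from the limma fit with the biological replicate as a block (n = 3 pairs). A bulk signal cannot tell more RNA per cell from more cells that carry the RNA.

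Each of the 7 probes gave a higher estimate at pH 7.0, by 0.23 to 0.79 on the log2 scale, with a median of 0.52. The median over all tested probes was 0.012, and 51.3% of them had an estimate above 0. None of the 7 passed a limma adjusted p of 0.05, and the background was 0 of 27136 probes (0%). At an unadjusted limma p under 0.05, 2 of the 7 probes were higher, the PSMB8 probe and 1 DLA-DQA1 probe, where 6.48% of all tested probes were higher. The same sign in all 3 pairs was found for 6 of the 7 probes, where 18.0% of all tested probes were higher in all 3. In 3 of the 7 probes, the PSMB8 probe and both PSMB9 probes, all 3 pH 7.0 extracts lay above all 3 pH 7.4 extracts, which held for 4.48% of all tested probes. The 7 probes cover only 4 genes, so these counts are not counts of independent measurements. The 598 named genes with a tested probe also leaned upwards, with a median change of 0.077 and 60.7% of them higher. An exact two-sided permutation test over 3 pairs cannot give a p below 0.25, so single probes were tested only in the fit across all probes.

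**Figure D1:**
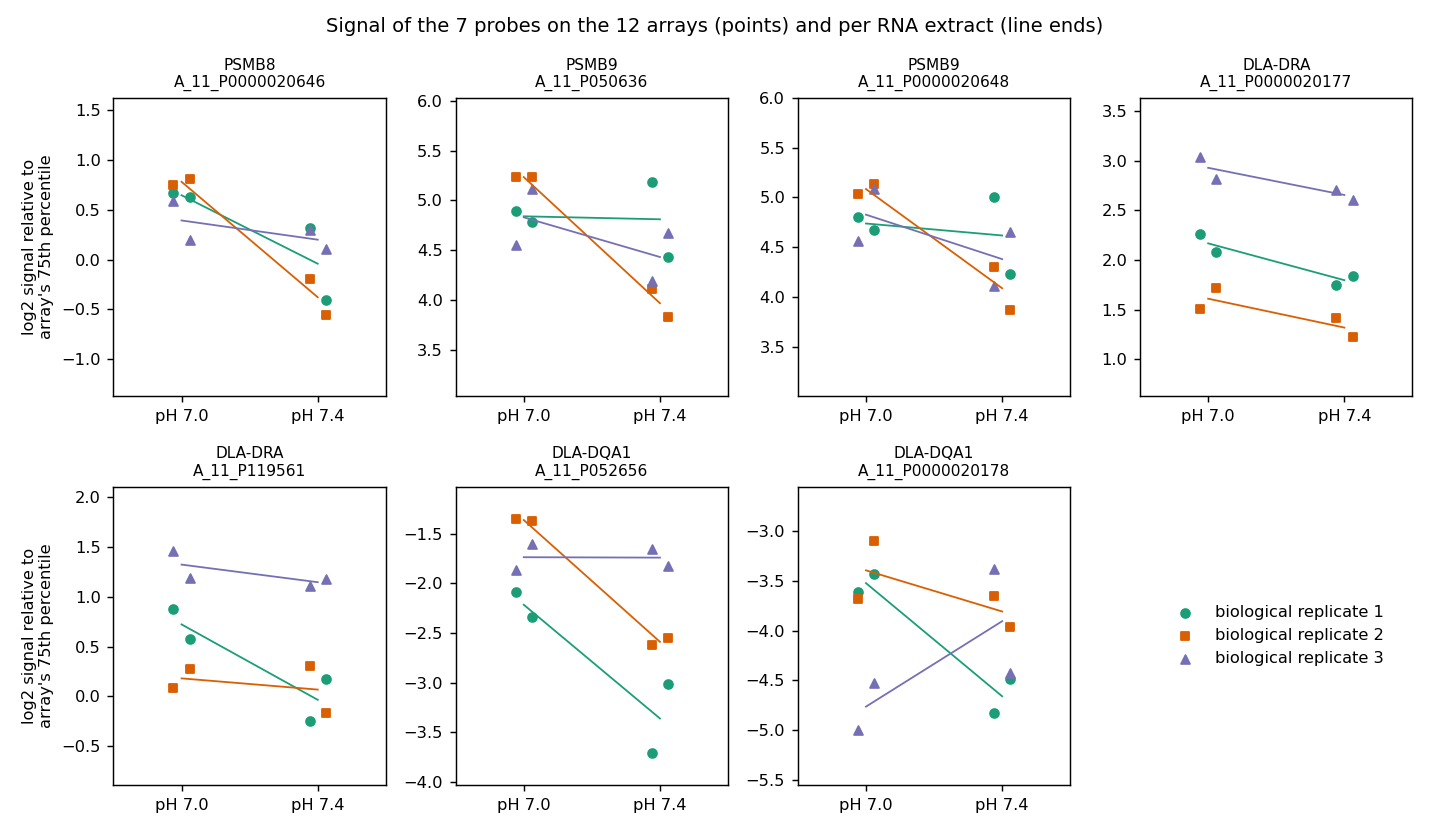
Log2 signal relative to the 75th percentile of the array for each of the 7 probes, at pH 7.0 (left of each panel) and pH 7.4 (right), with points for the 12 arrays and line ends for the 6 RNA extracts, coloured by biological replicate; every panel spans the same log2 range. The PSMB8 and PSMB9 extracts do not overlap between groups, while the DLA-DRA extracts are ordered mainly by biological replicate.

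PSMB8, the chymotrypsin-like subunit of the immunoproteasome, was represented by probe A_11_P0000020646, designed to NM_001048085. Its level was 0.65, 0.78 and 0.39 in the pH 7.0 extracts of biological replicates 1, 2 and 3, and -0.041, -0.38 and 0.20 in the pH 7.4 extracts. Every pH 7.0 extract was above every pH 7.4 extract. Over single arrays the groups did overlap: the 6 pH 7.0 arrays ran from 0.20 to 0.81 with a median of 0.65, and the 6 pH 7.4 arrays from -0.56 to 0.32 with a median of -0.045. Feature Extraction, the scanner software, called the probe well above background on every array.

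The PSMB8 signal was estimated at 1.60-fold higher at pH 7.0 (95% confidence interval 1.08 to 2.37), a log2 change of 0.68 ± 0.25. The limma p was 0.0227 before adjustment and 0.321 after it. The 3 pairs differed in size, with changes of 0.69, 1.16 and 0.19 in biological replicates 1, 2 and 3. The largest came from the replicate whose arrays detected the fewest probes. Among all tested probes, 3.91% had a larger change. Without biological replicate 2 the change was 0.44, and without biological replicate 3 it was 0.92.

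PSMB9, another catalytic subunit of the immunoproteasome, had a bright probe, A_11_P050636, and a second, A_11_P0000020648, both for NM_001048086. On the first, the pH 7.0 extracts read 4.84, 5.23 and 4.83, and the pH 7.4 extracts 4.81, 3.97 and 4.43. On the second, the pH 7.0 extracts read 4.74, 5.08 and 4.83, and the pH 7.4 extracts 4.62, 4.09 and 4.38. The groups did not overlap on either probe, but biological replicate 1 separated them only slightly.

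The estimates of both PSMB9 probes were close to each other, 0.57 ± 0.27 (1.48-fold) and 0.52 ± 0.25 (1.44-fold). Neither passed the threshold, with unadjusted limma p of 0.0668 and 0.0612 and adjusted p of 0.444 and 0.434. The changes in biological replicates 1, 2 and 3 were 0.030, 1.268 and 0.40 on the first probe and 0.12, 1.00 and 0.45 on the second. In biological replicate 1 the duplicate arrays of the pH 7.4 extract disagreed, reading 5.19 and 4.43 on the first probe. Without pH 7.4 array 1 the estimates were 0.69 and 0.65, with unadjusted limma p of 0.0178 and 0.0138 and adjusted p of 0.241 and 0.222. Without pH 7.4 array 2 they were 0.44 and 0.39, with unadjusted limma p of 0.233 and 0.240. Without biological replicate 2 the first probe had a change of only 0.21.

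DLA-DRA, the alpha chain of the class II DR molecule, was measured by A_11_P0000020177 and by the dimmer A_11_P119561, both for NM_001011723. On the first, the extracts of biological replicates 1, 2 and 3 read 2.17, 1.61 and 2.93 at pH 7.0 and 1.80, 1.32 and 2.65 at pH 7.4. The groups overlapped, since the biological replicates lay farther apart than the groups: their range was 1.32 at pH 7.0 and 1.33 at pH 7.4. Within each pair, the pH 7.0 extract was the higher one.

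The change of the first DLA-DRA probe was nearly the same in the 3 pairs, 0.37, 0.29 and 0.27. The standard deviation (SD) of these 3 changes was 0.052, smaller than in all but 1.40% of tested probes, where the median SD was 0.37. The estimate was 0.31 ± 0.22, or 1.24-fold, and did not pass the threshold (unadjusted limma p of 0.184, limma adjusted p = 0.614). The limma error is drawn towards that of the other probes, and so is larger than the spread of these 3 changes. The second probe gave 0.35 ± 0.24 (limma adjusted p = 0.599), with less even changes of 0.76, 0.11 and 0.18.

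DLA-DQA1, the alpha chain of the DQ molecule, had the largest estimate and the least agreement between probes. Probe A_11_P052656, for NM_001011726, read -2.22, -1.36 and -1.74 in the pH 7.0 extracts and -3.36, -2.59 and -1.74 in the pH 7.4 extracts. The groups overlapped because the pH 7.4 extract of biological replicate 3 stood as high as its pH 7.0 partner. The pH 7.4 extracts spread over 1.62 and the pH 7.0 extracts over 0.85. The probe was well above background on all 12 arrays, with a processed signal of 158 to 221 at pH 7.0 and 56.3 to 221 at pH 7.4.

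The A_11_P052656 signal of DLA-DQA1 was estimated at 1.73-fold higher at pH 7.0 (95% confidence interval 1.12 to 2.68), a log2 change of 0.79 ± 0.28 (unadjusted p of 0.0191, limma adjusted p = 0.303). The changes in biological replicates 1, 2 and 3 were 1.14, 1.23 and 0.0042. The estimate was 0.61 without biological replicate 1 (unadjusted limma p of 0.0708), 0.57 without biological replicate 2 (unadjusted p of 0.115) and 1.18 without biological replicate 3 (unadjusted p of 0.00244). The estimate for the mean of both DLA-DQA1 probes was 0.51 ± 0.31 (unadjusted limma p of 0.128). With normexp background correction the A_11_P052656 estimate was 0.16 with the local background as given and 0.52 with outlying local backgrounds replaced.

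The second DLA-DQA1 probe, A_11_P0000020178, was the dimmest of the 7, detected above background on 5 of the 6 pH 7.0 arrays and all 6 pH 7.4 arrays. Its extracts read -3.52, -3.39 and -4.76 at pH 7.0 and -4.66, -3.81 and -3.90 at pH 7.4. The pairs disagreed in sign, with changes of 1.14, 0.41 and -0.86. The estimate of 0.23 ± 0.34 (limma adjusted p = 0.843) turned to -0.22 without biological replicate 1 and to -0.47 under normexp with the local background as given. Duplicate arrays differed by 0.49 on average and by up to 1.04 on this probe. Class II genes are highly variable between dogs and resemble each other, and how well each probe matches the alleles of MDCK cells was not tested.

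**Figure D2:**
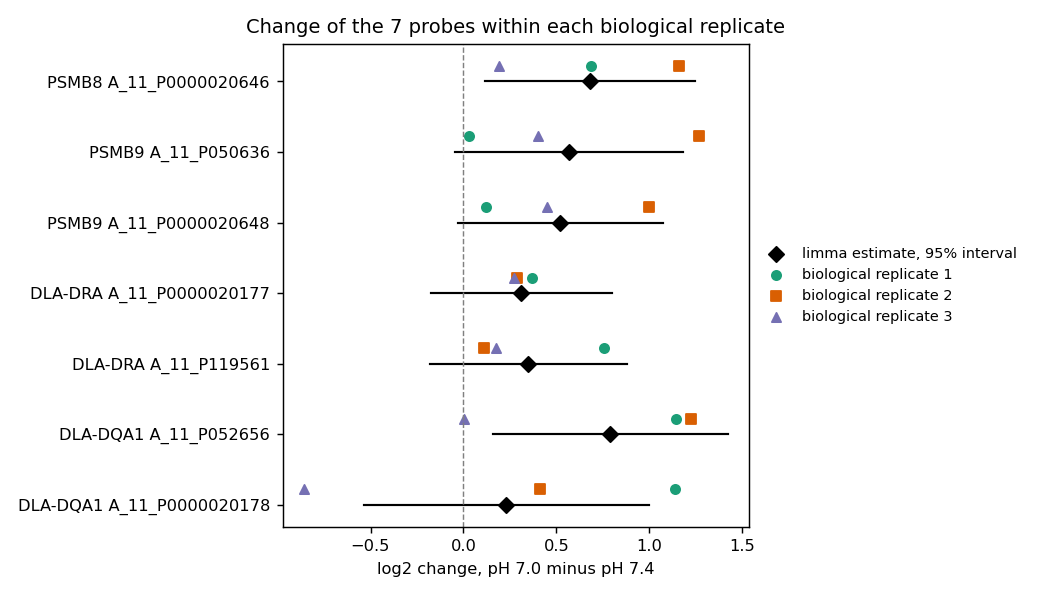
Log2 change, pH 7.0 minus pH 7.4, of the 7 probes: black diamonds with lines show the limma estimate and its 95% interval, and coloured points the 3 biological replicates. The interval lies above 0 for the PSMB8 probe and for DLA-DQA1 probe A_11_P052656 and includes 0 for the other 5.

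Over the 6 extracts, the genes fell into different patterns. As a description, the Pearson r between the PSMB8 probe and the PSMB9 probes was 0.85 and 0.88, and r between both PSMB9 probes was 0.98. The 2 DLA-DRA probes were related at 0.95. PSMB8 and DLA-DRA were related at only 0.32 and 0.34, and the first PSMB9 probe and DLA-DRA at 0.18 and 0.046. The DLA-DQA1 probe A_11_P052656 had an r of 0.68 with PSMB8, 0.35 and 0.46 with the PSMB9 probes, and 0.39 and 0.56 with the DLA-DRA probes. Both DLA-DQA1 probes were related at 0.42. The second of them had an r of 0.38 with PSMB8, 0.041 and 0.056 with the PSMB9 probes, and -0.44 and -0.23 with the DLA-DRA probes. These 6 points share 3 slides, and r mixes differences between pH with those between biological replicates.

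**Figure D3:**
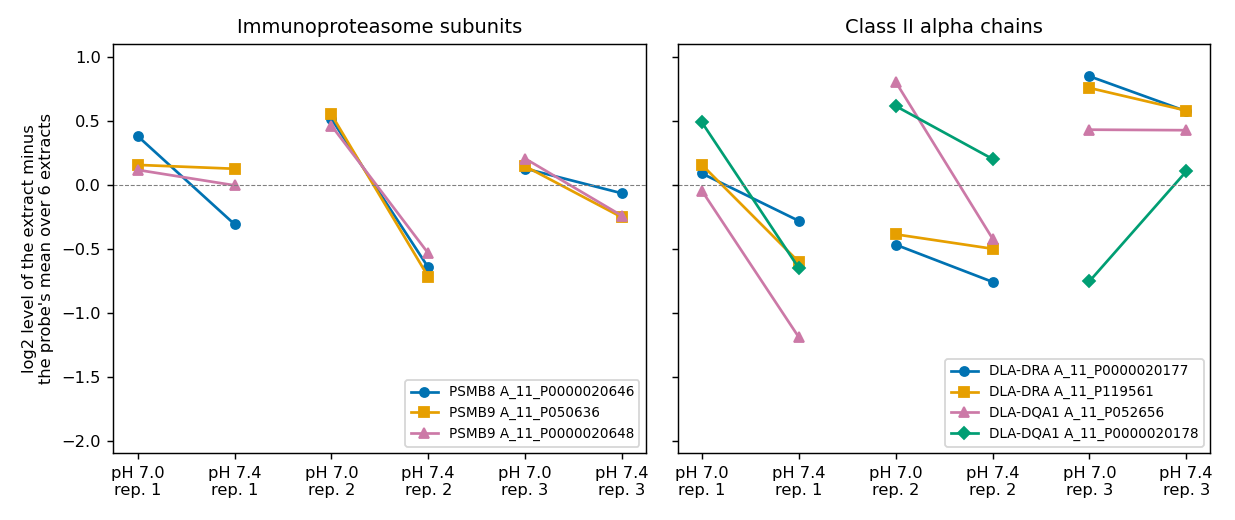
Log2 level of each extract minus the mean of the probe over the 6 extracts, with pH 7.0 left of pH 7.4 in each biological replicate, for the immunoproteasome subunits (left panel) and the class II alpha chains (right panel). The lines of PSMB8 and PSMB9 are steepest in biological replicate 2, the DLA-DRA lines step between biological replicates, and the DLA-DQA1 probes part in biological replicate 3.

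The named genes most like each member, by r over the 6 extracts among 597 other named genes, differed as well. The 3 highest of 597 values of r over only 6 points are high by selection. How high chance alone would take them was not tested, so they are given as a description only. For PSMB8 they were the chemokine CCL27 (r = 0.96) and the interferon-induced antiviral enzymes OAS1 (0.96) and OAS2 (0.93), against a median r of 0.096. For PSMB9 they were RIIAD1 (0.95), the lysosomal phospholipase PLA2G15 (0.94) and the transporter SLC46A2 (0.93). For DLA-DRA they were DLA-DQB1, the beta chain of the DQ molecule (0.98), FUNDC2 (0.98) and BCL2L1, an inhibitor of apoptosis (0.98). As many as 43 named genes exceeded 0.9 with DLA-DRA, whereas PSMB8, PSMB9 and DLA-DQA1 each had 4 or 5. For DLA-DQA1 they were the nitric oxide synthase NOS3 (0.96), the gelatinase MMP9 (0.93) and the caveolar protein CAV1 (0.93), the last of these 3 being saturated on 3 arrays and MMP9 on 6.

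Other class II genes gave estimates of the same sign. Of 17 listed genes of class II presentation, 6 had a tested probe, and all 6 estimates were above 0, with a median of 0.27. At an unadjusted limma p under 0.05, 1 of the 6 was higher and 0 were lower, and 3 were higher in all 3 pairs. Over all 598 named genes tested, by their brightest probes, 60.7% had an estimate above 0. At that p 10.5% were higher, and 22.1% were higher in all 3 pairs. The 1 at an unadjusted p under 0.05 was the DR beta chain gene, the partner of DLA-DRA, which the annotation names HLA-DRB1. Its 3 probes gave 0.58 ± 0.23, 0.57 ± 0.23 and 0.54 ± 0.22, and the first had an unadjusted limma p of 0.0330 and an adjusted p of 0.360. Its pairs differed by 0.22, 0.85 and 0.67. DLA-DMA, part of the DM molecule that loads peptide onto class II, stood at 0.34 ± 0.22, with no overlap of its extracts.

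DLA-DQB1, the partner of DLA-DQA1, stood at 0.24 ± 0.22, and its 4 probes lay between 0.021 and 0.42. DLA-DOB, part of a modulator of DM, was dim and stood at 0.30 ± 0.28, detected on 4 of the 6 pH 7.0 arrays and 3 of the 6 pH 7.4 arrays. The lysosomal proteases CTSD (0.15 ± 0.27) and CTSS (0.049 ± 0.34), which process class II peptides and the invariant chain, had estimates smaller than their SE. CD74, the invariant chain, and CIITA, the class II transactivator, had no named probe and were not analysed here.

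On the class I side, to which the immunoproteasome supplies peptides, 4 of 13 listed genes had a tested probe. By the brightest probes all 4 estimates were above 0, with a median of 0.22, where 60.7% of all named genes tested were above 0. Of the 4, 0 reached an unadjusted limma p of 0.05. The brightest probes of the heavy chain genes DLA88 (0.40 ± 0.24) and DLA-64 (0.25 ± 0.25) were each saturated on 7 of 12 arrays. Of the other DLA-64 probes, 1 was also saturated on 7 arrays (0.27 ± 0.24), and the unsaturated one gave 0.46 ± 0.25. TAPBP, which encodes tapasin, a bridge between class I and the peptide transporter, gave 0.20 ± 0.26 by its brightest probe and 0.75 ± 0.22 by the other (unadjusted p of 0.00668, limma adjusted p = 0.222). That other probe was even over the pairs, at 0.87, 0.70 and 0.69. CANX, the chaperone calnexin, gave 0.087 ± 0.27 by its brightest probe and -0.14 ± 0.23 by the other.

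The rest of the proteasome was hardly covered. Of 42 listed subunits and regulators, only PSMD4, a ubiquitin receptor of the regulatory particle, had a tested probe. It stood at 0.075 ± 0.24, with changes of -0.33, 0.32 and 0.23 in biological replicates 1, 2 and 3. The constitutive subunits that PSMB8 and PSMB9 replace, and PSMB10, were not analysed here, so a shift within the complex could not be measured.

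Interferon gamma is a textbook inducer of all 4 genes. The probes of IFNG and IFNB1 were well above background on 0 of 12 arrays. Among 28 listed genes of interferon signalling, 3 had a tested probe, and their estimates were 0.21 for the inhibitor SOCS3, -0.096 for TNF and -0.034 for IFNA7. SOCS3 was detected on 4 of the 6 pH 7.0 arrays and 3 of the 6 pH 7.4 arrays, and TNF on 4 and 5. The tested IFNA7 probe was well above background on all 12 arrays, with mean log2 levels of -0.082 at pH 7.0 and -0.048 at pH 7.4. The other probes of TNF (change 0.57) and IFNA7 (-0.14) were well above background on 0 of 12 arrays and were not tested. The IFNA7 probes thus disagreed on whether this RNA was detected. Of 28 listed interferon targets, 6 had a tested probe. All 6 had an estimate above 0, as did 60.7% of all named genes tested. Of the 6, 3 (MX1, OAS1 and OAS2) were higher at an unadjusted limma p under 0.05, which held for 10.5% of all named genes tested.

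Estimates differed widely among the targets. MX1, an antiviral GTPase, stood at 1.46 ± 0.32 (limma adjusted p = 0.136), OAS1 at 1.02 ± 0.27 (limma adjusted p = 0.188) and OAS2 at 0.87 ± 0.33 (limma adjusted p = 0.331). OAS3 stood at 0.57 ± 0.26 and EIF2AK2, a kinase that senses viral RNA, at 0.069 ± 0.30. The chemokine CXCL10 stood at 0.74 ± 0.65, with changes of 2.10, 2.05 and -1.94 in biological replicates 1, 2 and 3. The median of the 6 targets was 1.18, 1.54 and -0.10 in biological replicates 1, 2 and 3. The median of the 7 immunoproteasome and class II probes was 0.69, 1.00 and 0.19 in the same replicates. Biological replicate 3 had the lowest median for both, and for the class I list (0.11, 0.78 and -0.071). The class II list was lowest in biological replicate 1 (0.15, 0.50 and 0.47). The list medians take the brightest probe of each gene, while the 7 probes cover 4 genes. Single probes differed too: DLA-DRA probe A_11_P0000020177 was even over the pairs and both PSMB9 probes were lowest in biological replicate 1. Whether the 4 genes and the targets share a cause was not tested. All probes together had medians of -0.017, 0.022 and 0.048. Whether the difference between replicates has a technical source was not tested.

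**Figure D4:**
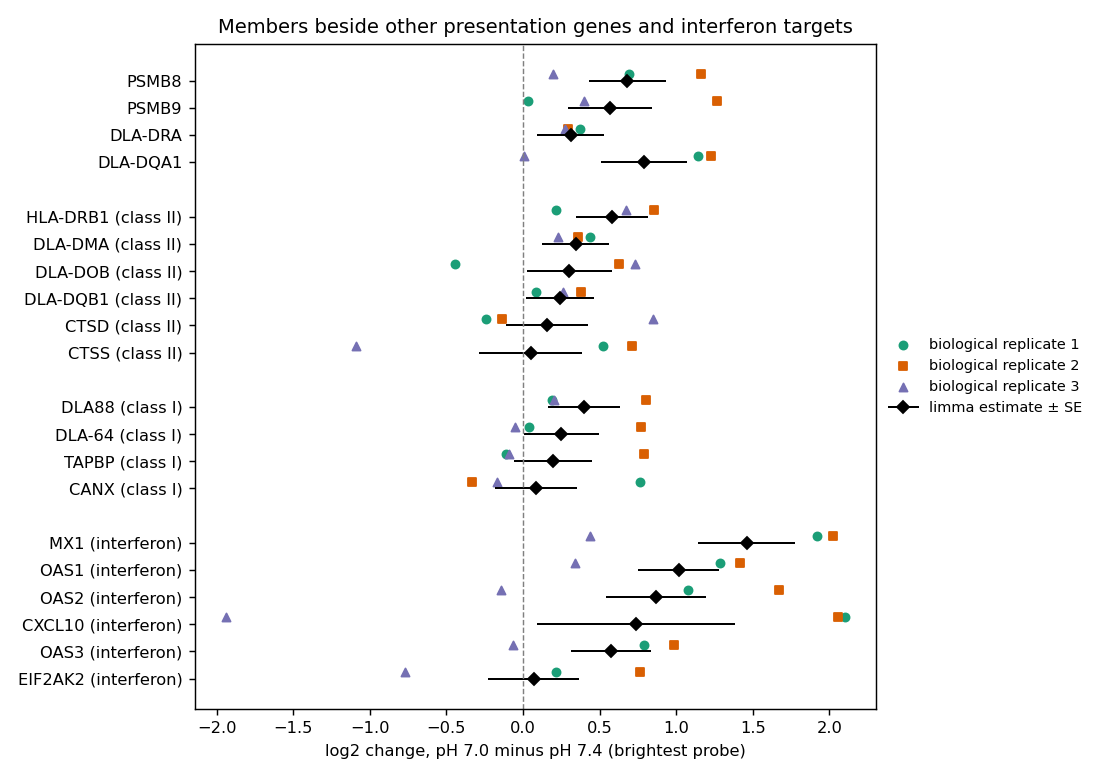
Log2 change, pH 7.0 minus pH 7.4, by the brightest probe of each gene: black diamonds with bars show the limma estimate and its SE, coloured points the 3 biological replicates, for the 4 genes described here and the tested genes of class II presentation, class I presentation and the interferon targets. The probes shown for DLA88 and DLA-64 were saturated on 7 of 12 arrays each. Among the genes shown, the estimates of MX1 and OAS1 lie farthest to the right.

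In the gene order of the dog assembly UU_Cfam_GSD_1.0, the 4 genes lie in 1 stretch of the MHC. It runs DLA-DRA, HLA-DRB1, DLA-DQA1, DLA-DQB1, LOC100856137, DLA-DOB, TAP2, PSMB8, TAP1 and PSMB9. Of these 10 neighbours 7 had a tested probe, and by the brightest probes their 7 estimates lay between 0.24 and 0.79. Other tested probes of these genes reached down to 0.021 for DLA-DQB1 and 0.23 for DLA-DQA1. The ends of the stretch were set by the 4 genes themselves. These make up 4 of the 7 and were chosen with earlier results of these data known. Over all named genes tested, 60.7% had an estimate above 0. The 3 tested genes outside the 4 were HLA-DRB1, DLA-DQB1 and DLA-DOB, given above. The peptide transporter genes TAP1 and TAP2, which flank PSMB8, were not analysed here.

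Markers of leukocytes that carry class II were measured because such cells would bring these RNAs with them. Of 17 listed markers 7 had a named probe, and 3 of these were tested: CD40 (0.86 ± 0.26), CD86 (-0.29 ± 0.41) and CD1C (0.068 ± 0.22). CD40 had an unadjusted limma p of 0.00825 and an adjusted p of 0.233. CD40 and CD86 were well above background on all 12 arrays. CD1C was so on 4 of the 6 pH 7.0 arrays and 5 of the 6 pH 7.4 arrays. The B cell marker MS4A1, the macrophage marker CD163 and the dendritic cell marker CD1A6 were well above background on 0 of 12 arrays, and CD80 on 1. The summed linear level of the 7, relative to the 75th percentile of the array, was 13.4 to 24.8 over the pH 7.0 extracts and 7.16 to 18.0 over the pH 7.4 extracts. CD40 made up most of this sum, and without it the sum was 0.105 to 0.196 at pH 7.0 and 0.129 to 0.172 at pH 7.4. CD40 encodes a costimulatory receptor of leukocytes that kidney epithelium can also make, and which cells made it here was not tested. CD40, like the 4 genes, was higher at pH 7.0 by estimate, and its part in their changes was not tested. For T cells, 4 of 7 listed markers had a named probe, and CD28 and IL2RA were well above background on 0 of 12 arrays. CD8A was detected on 4 of the 6 pH 7.0 arrays and 3 of the 6 pH 7.4 arrays, with an estimate of -0.0093 ± 0.23. CD4 was detected on 3 and 2 of these arrays, below the filter for testing. The sum of the 4 was 0.0401 to 0.0567 at pH 7.0 and 0.0321 to 0.0623 at pH 7.4. Among 4 endothelial and 6 fibroblast markers, 1 and 3 were tested, and 0 reached an unadjusted limma p of 0.05 in either direction. The endothelial marker VWF and the fibroblast markers COL1A1 and COL1A2 were well above background on all 12 arrays. PDGFRB was so on 5 of the 6 arrays of each group. Mean log2 levels at pH 7.0 and pH 7.4 were 1.06 and 0.88 for VWF and 0.32 and 0.53 for COL1A2. Which cells made these RNAs was not tested.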

How the data were processed

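RNA of MDCK cells after 24 h at pH 7.0 or at pH 7.4 was measured on one-colour Agilent arrays. The scanner files deposited by the authors hold Cy3 intensity per spot, and Feature Extraction 10.7.3.1 read the scans, per the submitters' processing notes. The deposited value table holds log2 values for 43553 probes in 43593 entries, with scale and centring not stated. Set against the scanner files, it matches the processed signal on a log2 scale after subtraction of the 75th percentile of each array and the median of each probe (slopes 0.99975 to 1.0004), and no ratio direction applies. The 6 columns at pH 7.0, in array order, had medians of -0.113, -0.150, 0.226, 0.213, -0.226 and 0.0170. The 6 at pH 7.4 had medians of 0.0197, -0.212, 0.213, 0.0793, -0.0855 and 0.0656. Genome build and annotation of the probes are not given in the sources used here.

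Control spots and 128 outlier spots were left out, and saturated spots were kept. Arrays 1 and 2, 3 and 4, and 5 and 6 of a group were averaged as the extracts of biological replicates 1, 2 and 3, and the number of 3 pairs limits the precision. Probes well above background on at least 6 of 12 arrays went into a two-sided limma fit (version 3.58.1, R 4.3.3, lmFit and eBayes, biological replicate as a block, 9.67 degrees of freedom), adjusted by Benjamini-Hochberg across the 27136 tested probes, with the threshold at 0.05. The series design pairs the extracts. Within biological replicates the deviations from group means had correlations of 0.394, 0.637 and 0.807, against -0.628 to 0.255 between replicates. The deviations of each group sum to 0, so values above 0 within replicates force lower ones between replicates. The pairing therefore rests on the design and not on this contrast. The fit was tested on simulated data.

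Symbols came from accessions matched to the annotation of UU_Cfam_GSD_1.0, which named 1484 probes (3.40%). All probes of the 4 genes were described. From each list the 4 genes of lowest unadjusted p at most were to be named, by the brightest tested probe, and the rest of the smaller lists were added after their values were seen, as were other probes of a gene. Likeness took the 3 named genes of highest r. The genes and the lists were chosen with earlier results of these data known. Alternatives covered the block, duplicate arrays, background correction (normexp, offset 50), scaling, the value table, filters, the fit's prior, thresholds, averaging the probes of a gene, and leaving out each replicate and array. Promoter motifs were not searched. Figures were drawn with matplotlib 3.10.9 in python 3.11.15.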

Additional observations from a re-analysis of the deposited data

Results flagged for a closer look

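On the PSMB8 probe, array 6 at pH 7.0 read 0.197, well below the other 5 pH 7.0 arrays. Its distance from the nearest of them was 0.639 of the range of the group, above Dixon's 95% critical value for 6 arrays. Array 5, which holds the same extract, read 0.590. With 6 independent values, chance marks about 1 in 20 groups, and 14 groups were looked at (7 probes at 2 pH values). Here the 6 arrays of a group are duplicates of its extracts, and some probes share a gene. The rate for this design was not tested.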

How the results depend on the processing

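Over the alternatives, 179 of 181 values of the 7 probes kept their direction and stayed above an adjusted p of 0.05. The 2 that reversed both belonged to DLA-DQA1 probe A_11_P0000020178: -0.47 under normexp with the local background as given and -0.22 without biological replicate 1, with a range of -0.22 to 0.78 when 1 replicate or array was left out. The other 6 probes stayed above 0, and no probe reached an adjusted p under 0.05. The paired design mattered for the p-values: with no replicate block, changes were the same, but the adjusted p of all 7 probes was 1.00, probes higher at an unadjusted p under 0.05 numbered 453 in place of 1758, and 1 member probe in place of 2 was among them. That member count was 4 with 12 arrays and the extract as a random block, with outlying local backgrounds replaced, with a filter on all 12 arrays and with an intensity trend, 0 under normexp as given, and 0 to 4 when 1 replicate or array was left out (0 without biological replicate 2, 1 without pH 7.4 array 2, 4 without pH 7.4 array 1 or 6).

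The count of all probes called, 0, was 690 with the random block, 14 under normexp as given, 24 with array medians, 134 with the filter on all 12 arrays, 135 with an intensity trend, 71 at an adjusted p under 0.10, 3324 at an unadjusted p under 0.05, and 0 to 647 when 1 replicate or array was left out (277 without biological replicate 1, 647 without 2, 15 without pH 7.0 array 6, 4 without pH 7.4 array 1). The unadjusted count of higher probes was 324 under normexp as given and 1041 without biological replicate 3. The cause was not tested. In the fit with the random block, the estimated correlation between duplicate arrays of an extract was only 0.16. That fit therefore counted the duplicates nearly as separate replicates, which limits its 690 called probes and its member count of 4. The local background exceeded the signal by over 50 on 11 spots of 2 arrays. Signal over background limits the dim DLA-DQA1 probe most.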
